A study of Mus musculus with 4 samples.

Results

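Laminins are the large heterotrimers that epithelial cells lay down beneath themselves, and 7 of their chain genes are described here together with 2 other basement membrane genes, Npnt and Tinagl1, in AT2 cells lacking or keeping Alkbh5. The 9 genes were chosen by name, and Tinagl1 was selected on its difference between the genotypes in these same libraries, so its values below are a description with no test. The other 8 were added as laminin chains and a further basement membrane ligand, with earlier results of these data known. The count table held 40092 genes, of which 16661 had enough counts to be tested, and 9 of the 9 genes were among them. The libraries came from AT2 cells, the surfactant-making progenitors of the alveolus, sorted by FACS for GFP on day 14 after bleomycin. Bleomycin injures the alveolar epithelium and leads to fibrosis.

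The 2 Ctrl libraries had the genotype Alkbh5flox/+; Sftpc-CreERT2; Rosa26-mTmG, and the 2 A5-CKO libraries had Alkbh5flox/flox; Sftpc-CreERT2; Rosa26-mTmG. Both groups received tamoxifen and bleomycin, and both carried the Cre driver, the reporter and at least 1 floxed allele, so Ctrl cells are heterozygous after recombination rather than wild type. The Cre was driven by Sftpc, an AT2 gene, and the reporter turns any recombined cell and its descendants green, so the gate also collects cells that have since left the AT2 state. Alkbh5 removes the methyl mark m6A from RNA, and the comparison asks which transcripts differ in AT2 cells without it. The labels do not say that the libraries came from separate animals, so the p-values measure only the spread between these libraries.

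As background, a basement membrane is a thin sheet of matrix on which the alveolar epithelium rests. A laminin has 1 alpha, 1 beta and 1 gamma chain. The alpha chain binds integrins and dystroglycan on the cell, and the short arms polymerize into a network that nidogens and heparan sulfate proteoglycans tie to collagen IV. Lama3 and Lamb3 are chains of the epithelial laminin that anchors hemidesmosomes. Lama5 with Lamb1 or Lamb2 and Lamc1 makes the laminins of mature epithelial basement membranes, and Lama4 with the same partners makes laminins typical of vessels and mesenchyme. Npnt encodes nephronectin, a matrix ligand of the integrin whose alpha chain is Itga8. Tinagl1 encodes a secreted matrix glycoprotein, related to tubulointerstitial nephritis antigen, that interacts with laminins and integrins.

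Total counts ranged from 18144865 to 20811757, and normalized counts below are counts per 1000000 of the TMM-scaled library (CPM). A count of 3, used as the floor of detection, equals 0.128 to 0.177 CPM, and this floor covers counting error only. Libraries differed far beyond sampling noise within Ctrl (chi-square per degree of freedom 110) and within A5-CKO (96.4), and the closest of all pairs was Ctrl 1 with A5-CKO 2 (88.7), which crosses the genotypes. Values of a gene are given in the order Ctrl 1, Ctrl 2, A5-CKO 1, A5-CKO 2. The targeted gene Alkbh5, on chromosome 11 from 60537683 to 60558512 (GRCm38.p6), had 81.7, 152, 19.3 and 36.6 CPM. It was lower in the knockout without overlap between the groups, with a log2 fold change of -2.06 (SE 0.46). Its adjusted p was 0.528 in edgeR's quasi-likelihood test and 0.0224 in DESeq2 with its default filtering. Of the AT2 markers, Sftpc, the surfactant protein C gene, was at 15477, 16370, 10268 and 7856 CPM, lower in both A5-CKO libraries, and 12 of 12 AT2 markers (10 of 12 with total counts only) had a log2 fold change below 0. The club cell gene Scgb1a1 was also present, at 1012 to 2262 CPM.

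No gene of the whole table passed an adjusted p of 0.05 in edgeR, 0 of 16661 or 0%, while 746 genes, 4.48% of those tested, were higher in A5-CKO at an unadjusted p under 0.05 and 784, 4.71%, were lower. The split moved with the scaling, to 992 higher and 493 lower with upper-quartile factors and to 1706 higher and 171 lower with total counts only. About 833 genes are expected at that threshold by chance. DESeq2 with default filtering called 59 of 15306 genes, 0.385%. Both A5-CKO libraries lay above both Ctrl libraries for 20.3% of all genes tested and below both for 23.5%, which became 34.8% and 10.1% with total counts only. These shares are the background for the counts that follow. An exact permutation test of 2 libraries against 2 could reach no two-sided p below 0.333.

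Tinagl1 was the member with the widest gap between the genotypes. The gene (ID 94242) lies on the minus strand of chromosome 4 from 130165600 to 130175122 (GRCm38.p6), and its longest protein-coding transcript has 12 exons and 1976 bases. It had 361, 531, 38 and 80 counts, or 21.3, 30.9, 1.72 and 3.42 CPM. Both A5-CKO libraries lay far below both Ctrl libraries and still above the floor of 3 counts. The Ctrl mean of 26.1 ± 6.75 CPM (SD, n = 2) stood against an A5-CKO mean of 2.57 ± 1.20 CPM (SD, n = 2), a level 10.2-fold lower, with a log2 fold change of -3.34 (SE 0.52). Across 12 other settings of scaling, filter, tool and correction the log2 fold change ran from -3.40 to -3.01, and omitting any single library it ran from -3.95 to -2.94.

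Because the deleted enzyme acts on m6A, the places where the Tinagl1 transcript holds GGACT are shown here. GGACT is a single form of the m6A consensus RRACH, where R is A or G and H is A, C or U (T for U here). Other forms of the consensus were not counted. The transcript strand held 4, all in coding sequence. Each is given with 8 bases on either side, 5′ to 3′ on the transcript, with the motif in capitals, and the bases come from the GENCODE M21 transcript.
Tinagl1 site 1, exon 2: gacttctgGGACTtctgcctc
Tinagl1 site 2, exon 10: gtacacgaGGACTtcttcttg
Tinagl1 site 3, exon 10: cagacatgGGACTcactcagt
Tinagl1 site 4, across exons 11 and 12: taagtactGGACTgctgccaa
On the minus strand of GRCm38, site 1 is at chr4:130173924-130173944, site 2 at chr4:130166994-130167014 and site 3 at chr4:130166914-130166934. Site 4 runs from 130166312 down to 130166195 with an intron between its parts. This density, 2.02 per kilobase, was reached or exceeded by 11.9% of 15237 genes with a known transcript, whose median was 1.04 per kilobase. The laminin chains and Npnt ranged from 0.656 per kilobase (Lamc1) to 1.44 (Lamb3). A match of letters is not a methylated site, and methylation was not analysed here.

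**Figure D1:**
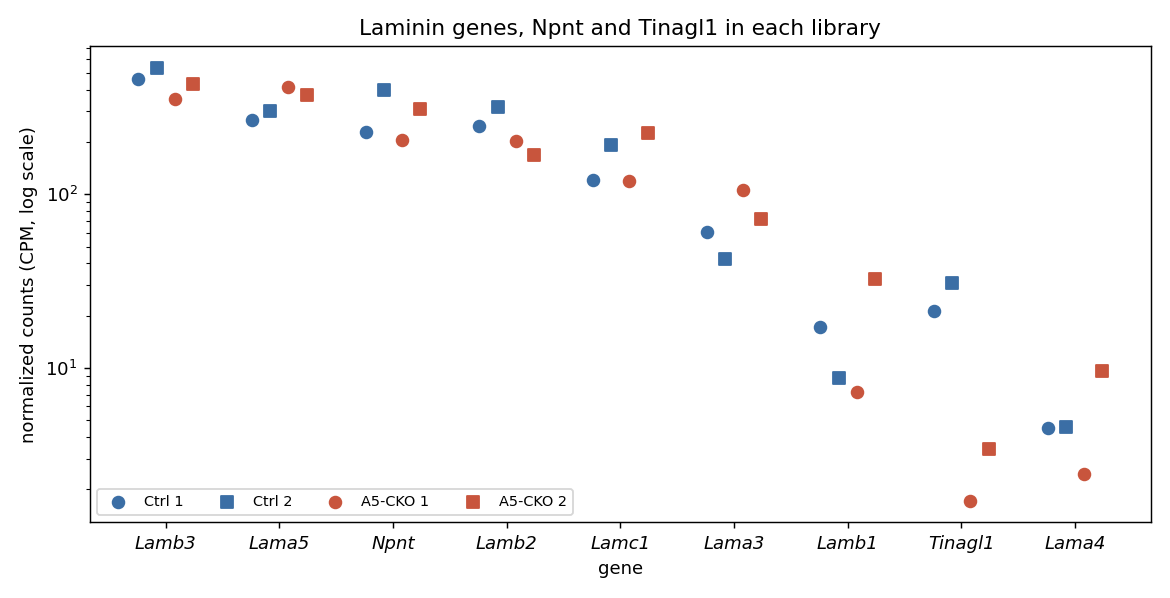
Normalized counts (CPM, log scale) of the 9 genes in each of the 4 libraries, ordered from left to right by mean level, with Ctrl in blue, A5-CKO in red, circles for replicate 1 and squares for replicate 2. Tinagl1 stands apart with 21.3 and 30.9 CPM in Ctrl against 1.72 and 3.42 in A5-CKO, while the 2 genotypes of Lama4, Lamb1, Lamc1 and Npnt overlap.

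None of the 8 genes other than Tinagl1 passed an adjusted p of 0.05 in edgeR, and 0 of the 8 had an unadjusted p under 0.05. Under DESeq2 0 of the 8 passed the adjusted threshold, and under the 12 other settings described below their adjusted p was 0.411 or more. Of the 8, 5 had a log2 fold change above 0 and 3 below, or 6 and 2 with total counts only, where Npnt changed sign. Lama3 and Lama5 were separated upward in A5-CKO (2 of 8) and Lamb2 and Lamb3 downward (2 of 8), with no overlap between the genotypes, which is close to the shares of all genes above. The median log2 fold change of the 8 was 0.28, against -0.02 over all genes tested. With total counts as the only scaling both medians moved up, to 0.61 for the 8 and to 0.30 for all genes.

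Among the alpha chains, Lama5 was the most abundant. Lama5, on chromosome 2 from 180176373 to 180225904 with 79 exons, encodes the chain found in most adult epithelial basement membranes. It had 4521, 5166, 9106 and 8705 counts, or 267, 301, 412 and 372 CPM. Both A5-CKO libraries were higher than both Ctrl libraries, by 1.38-fold between the means of 284 ± 23.5 CPM (SD, n = 2) and 392 ± 28.4 (SD, n = 2). The log2 fold change was 0.47 (SE 0.31, edgeR adjusted p = 0.610), which did not pass the test, and it ran from 0.38 to 0.51 as each library was left out.

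Lama3, on chromosome 18 from 12333417 to 12583013 with 75 exons, encodes the alpha chain of the hemidesmosomal laminin. It had 1020, 730, 2349 and 1691 counts, or 60.3, 42.5, 106 and 72.3 CPM. The A5-CKO libraries were again above both Ctrl libraries, A5-CKO 1 the more so. The Ctrl mean was 51.4 ± 12.6 CPM (SD, n = 2) and the A5-CKO mean 89.3 ± 24.1 CPM (SD, n = 2), with a log2 fold change of 0.80 (SE 0.34, edgeR adjusted p = 0.528, unadjusted p = 0.0525). The value was 0.48 without A5-CKO 1 and 1.13 without Ctrl 1, and it fell to 0.41 with a correction for transcript length and GC content. The Lama3 transcript, at 10548 bases, is longer than that of all but 1.92% of genes, and an antisense gene, Gm29200, shares 197 of the 10745 bases of its exons. Whether the counting used strand is not given in the sources used here, so reads of the 2 genes cannot be told apart there.

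Lama4, on chromosome 10 from 38965515 to 39110188 with 38 exons, was at the other end of the scale. It had 76, 78, 54 and 225 counts, or 4.49, 4.54, 2.44 and 9.62 CPM. The Ctrl libraries were nearly equal, and the A5-CKO libraries lay on either side of them, A5-CKO 2 the highest and A5-CKO 1 the lowest. The log2 fold change of 0.42 (SE 0.72, edgeR adjusted p = 0.857) turned to -0.92 without A5-CKO 2.

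The beta chains differed among themselves. Lamb3, the beta chain of the hemidesmosomal laminin, lies on chromosome 1 from 193294353 to 193343878 with 27 exons and had 7766, 9220, 7853 and 10067 counts, or 459, 536, 356 and 430 CPM. Both A5-CKO libraries were below both Ctrl libraries in CPM, by a small margin, and the groups overlapped when scaled by total counts only. The Ctrl mean was 498 ± 54.6 CPM (SD, n = 2) and the A5-CKO mean 393 ± 52.9 CPM (SD, n = 2), with a log2 fold change of -0.34 (SE 0.33, edgeR adjusted p = 0.718).

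Lamb2, on chromosome 9 from 108479847 to 108490530 with 33 exons, encodes a partner of Lama5 in mature basement membranes. It had 4155, 5459, 4469 and 3921 counts, or 246, 318, 202 and 168 CPM. The A5-CKO libraries were the 2 lowest, 1.52-fold between the means of 282 ± 50.8 CPM (SD, n = 2) and 185 ± 24.6 (SD, n = 2). The log2 fold change of -0.61 (SE 0.32, edgeR adjusted p = 0.553) did not pass the test, and stayed between -0.76 and -0.46 as each library was left out.

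Lamb1, the more widely expressed beta chain, lies on chromosome 12 from 31265146 to 31329644 with 33 exons. It had 289, 151, 161 and 756 counts, or 17.1, 8.79, 7.29 and 32.3 CPM. As for Lama4, A5-CKO 2 was the highest library in CPM and A5-CKO 1 the lowest, so the groups overlapped. Which library was lowest rests on the scaling, since Ctrl 2 had fewer counts (151) than A5-CKO 1 (161). Its log2 fold change of 0.61 (SE 0.71, edgeR adjusted p = 0.769) turned to -0.86 without A5-CKO 2.

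Lamc1, the gamma chain shared by most laminins, lies on chromosome 1 from 153218922 to 153332786 with 28 exons. It had 2056, 3289, 2636 and 5266 counts, or 122, 191, 119 and 225 CPM. Within each genotype replicate 2 was higher, and the groups overlapped almost entirely, with a log2 fold change of 0.14 (SE 0.41, edgeR adjusted p = 0.920). Npnt, on chromosome 3 from 132881745 to 132950291 with 12 exons, had 3864, 6820, 4546 and 7281 counts, or 228, 397, 206 and 311 CPM. Here too the groups overlapped, with a log2 fold change of -0.27 (SE 0.40, edgeR adjusted p = 0.827).

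**Figure D2:**
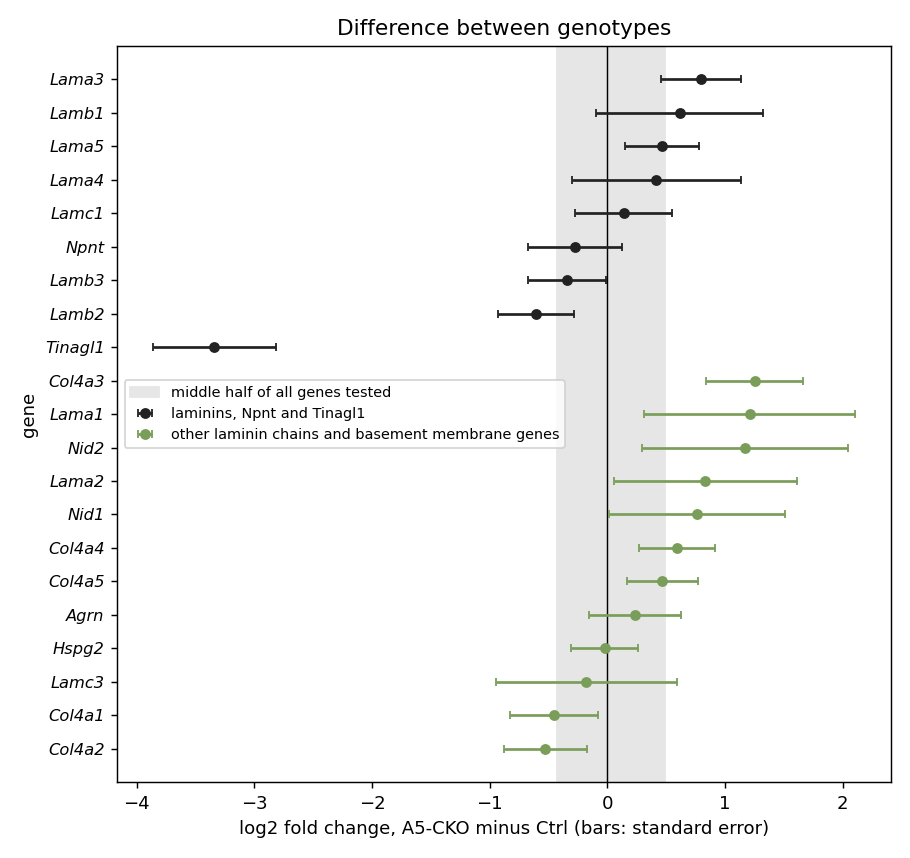
Log2 fold change (A5-CKO minus Ctrl) with its standard error from edgeR for the 9 genes in black and for the other laminin chains, nidogens, perlecan, agrin and collagen IV chains in green, with the middle 50% of all genes tested, from -0.43 to 0.49, in grey. Tinagl1 at -3.34 lies far outside the grey band, and the other 8 lie from -0.61 (Lamb2) to 0.80 (Lama3).

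Per kilobase of transcript, which allows levels of different genes to be compared, Lamb3 led in Ctrl at 102 ± 11.2 CPM per kb (SD, n = 2). It was followed by Npnt at 67.7 ± 25.8 and by Lamb2 at 50.04 ± 9.03 CPM per kb. Next came Lama5 at 24.9 ± 2.06, Lamc1 at 20.5 ± 6.47 and Tinagl1 at 13.2 ± 3.42 CPM per kb. Neighbours in this order whose libraries overlapped were Npnt with Lamb2 and Lama5 with Lamc1. At the low end were Lama3 at 4.87 ± 1.20, Lamb1 at 2.24 ± 1.02 and Lama4 at 0.747 ± 0.00515 CPM per kb. Lama3 was thus measured far below its partner Lamb3.

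In A5-CKO, Lamb3 was again first at 80.7 ± 10.9 CPM per kb (SD, n = 2), followed by Npnt at 56.0 ± 16.1. Lama5 at 34.4 ± 2.49 CPM per kb now stood next to Lamb2 at 32.9 ± 4.36, and their libraries overlapped. Lamc1 at 22.6 ± 9.81 and Lama3 at 8.47 ± 2.28 CPM per kb came next. Tinagl1 stood at 1.30 ± 0.608 CPM per kb, between Lamb1 at 3.42 ± 3.06 and Lama4 at 0.998 ± 0.839, and its libraries overlapped with those of both.

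**Figure D3:**
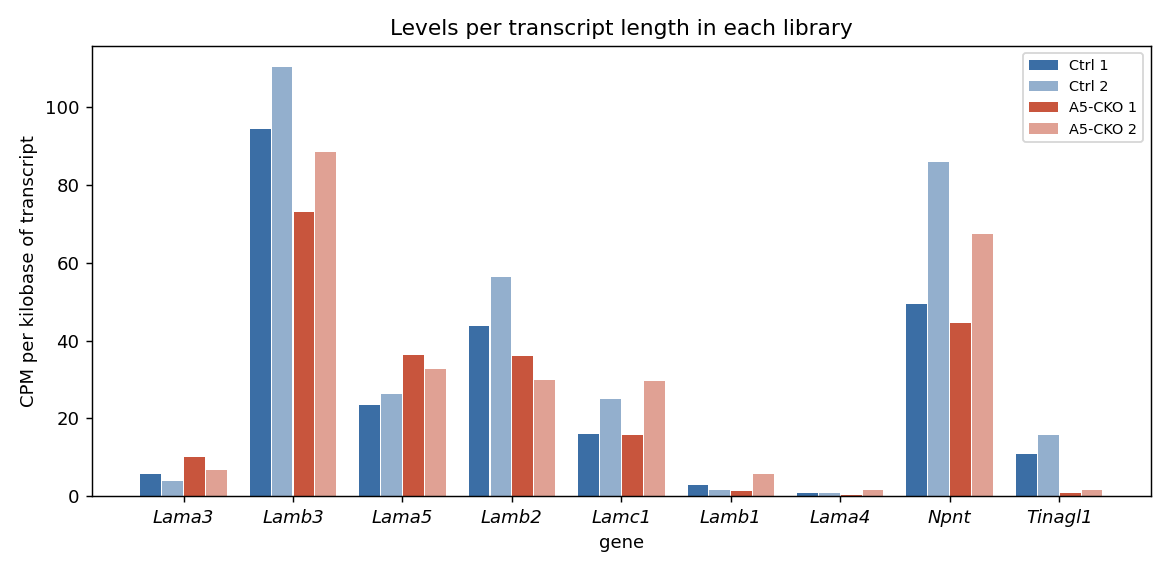
Bars give CPM per kilobase of the longest protein-coding transcript in each library, for the 9 genes, with the hemidesmosomal chains Lama3 and Lamb3 first. Lama5 stood below Lamb2 in both Ctrl libraries and close to it in both A5-CKO libraries.

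Ratios between chains within a library do not depend on the scaling of libraries. They still carry any difference between libraries by transcript length or GC content. With offsets for these the log2 fold change went from 0.80 to 0.41 for Lama3 and from 0.47 to 0.32 for Lama5. It went from -0.34 to -0.29 for Lamb3 and from -0.61 to -0.51 for Lamb2. Of 7 ratios computed per kilobase, chosen after the levels were seen and given without a test, 3 did not overlap between the genotypes. Each of these 3 pairs a gene separated upward in A5-CKO with another separated downward. Their lack of overlap was thus fixed by the levels above and is no further result, and no share over all gene pairs was computed. Lama5 to Lamb2 was 0.538 and 0.468 for Ctrl against 1.01 and 1.10 for A5-CKO. Lama3 to Lamb3 was 0.0606 and 0.0365 for Ctrl against 0.138 and 0.0775 for A5-CKO. Both alpha chains were therefore higher relative to these beta partners in both A5-CKO libraries. Tinagl1 to Lama5 was 0.460 and 0.592 for Ctrl against 0.0241 and 0.0530 for A5-CKO. The other 4 ratios, among them Lama5 to Lamc1 and Lama5 to Lama3, overlapped.

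Of the chains outside the 9 genes, 3 are described here, and all were low. Lama1, an early embryonic alpha chain, had 12, 7, 12 and 48 counts, Lama2, the muscle alpha chain, had 36, 55, 41 and 179, and Lamc3, a rarer gamma chain, had 65, 40, 26 and 100. None of the 3 passed an adjusted or an unadjusted p of 0.05 in edgeR, 2 were above 0 and 1 below (3 above with total counts only), and their median log2 fold change was 0.83. In each of the 3, A5-CKO 2 was the highest library.

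A wider list of 32 basement membrane genes beyond the laminins and Npnt held 30 that were tested. None passed an adjusted p of 0.05 in edgeR, 1 had an unadjusted p under 0.05, and 18 were above 0 and 12 below (21 and 9 with total counts only), with a median log2 fold change of 0.21. In 7 of the 30 both A5-CKO libraries lay above both Ctrl libraries and in 4 below, 3 of the 7 being collagen IV chains that occur together in 1 trimer. Col4a3 had 73.5, 35.1, 146 and 113 CPM, and it was the gene with the unadjusted p under 0.05 (log2 fold change 1.25, SE 0.41, edgeR unadjusted p = 0.0191, adjusted p = 0.528). Its trimer partners Col4a4 and Col4a5 also lay higher in both A5-CKO libraries, at 97.0, 85.9, 165 and 111 CPM for Col4a4 and 44.6, 44.2, 71.3 and 51.7 for Col4a5. The transcripts of Col4a3, Col4a4 and Col4a5 are long, at 8.55, 10.1 and 6.54 kb, against a median of 2946 bases over genes. With offsets for transcript length and GC content, 0 genes of the list had an unadjusted p under 0.05 in edgeR. The ubiquitous chains Col4a1 and Col4a2 lay the other way. Col4a1, the most abundant gene of the list, had 965, 910, 544 and 827 CPM (log2 fold change -0.45), and Col4a2 had 848, 818, 480 and 677 CPM (-0.53). Their separation rests on the scaling, and the groups overlapped when scaled by total counts only. A5-CKO 2 had 19345 counts of Col4a1 against 16326 and 15645 in Ctrl, and 15830 of Col4a2 against 14334 and 14059. These 4 chains did not pass the test, with edgeR adjusted p of 0.561 for Col4a4, 0.602 for Col4a5, 0.674 for Col4a1 and 0.611 for Col4a2.

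The linkers of the network did not separate by genotype. The nidogens join laminin to collagen IV, and Nid1 had 11.4, 6.98, 5.12 and 26.0 CPM while Nid2 had 1.36, 1.16, 0.905 and 4.79 CPM. In CPM both showed the order of Lamb1, with A5-CKO 2 highest and A5-CKO 1 lowest. Perlecan, the heparan sulfate proteoglycan encoded by Hspg2, had 123, 105, 116 and 108 CPM, a log2 fold change of -0.02 (SE 0.28, edgeR adjusted p = 0.981). Agrn, which encodes agrin, had 375, 200, 323 and 353 CPM (log2 fold change 0.23). Tinag, the relative of Tinagl1, had 35.5, 36.9, 61.2 and 21.1 CPM, so that its A5-CKO libraries lay on either side of Ctrl. Col4a6 had 0, 5, 8 and 0 counts and Col17a1 had 2, 6, 29 and 8, and neither had enough counts to be tested.

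Receptors for laminins and nephronectin were a list of 11 genes, and 0 passed an adjusted p of 0.05 in edgeR. Of the 11, 4 were above 0 and 7 below, with a median log2 fold change of -0.43 (-0.11 with total counts only), and 1 lay higher and 4 lower in both A5-CKO libraries. Itga6, the alpha chain of the hemidesmosomal laminin receptor, had 82.0, 47.0, 101 and 138 CPM (log2 fold change 0.89, SE 0.37, edgeR unadjusted p = 0.0483, adjusted p = 0.528). Its partner Itgb4 had 33.1, 10.9, 12.1 and 48.6 CPM and overlapped. Sdc1, the syndecan with the highest level of the list, had 1639, 2058, 934 and 1155 CPM (log2 fold change -0.82). Itga8, the alpha chain of the Npnt receptor, was low at 4.08, 6.40, 6.02 and 4.23 CPM, with a log2 fold change of -0.03.

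Markers of other cell types and states moved across the libraries and are given as measured, since in sorted bulk RNA fewer cells of a type and less RNA per cell cannot be told apart. AT2 markers were lower in A5-CKO, with 12 of 12 below 0 (10 of 12 with total counts only) and a median log2 fold change of -0.86, and their summed level was 58160, 84430, 43234 and 35707 CPM. Of the 12, 8 lay below both Ctrl libraries in both A5-CKO libraries, and Cebpa (log2 fold change -1.56), Napsa (-1.13) and Sftpb (-1.12) had an unadjusted p under 0.05 in edgeR. Cebpa passed in DESeq2, with an adjusted p of 0.0169 on the genes edgeR tested and 0.0297 by default filtering. Sftpa1 led the list at 15249, 20810, 11124 and 9094 CPM. Sftpb was counted on 2 copies in the reference, and this value is for its main copy only. AT1 markers had 7 of 9 tested above 0 and a median of 0.63, Vegfa (0.98) among them with an unadjusted p of 0.0433 in edgeR, yet their sum, led by Emp2, was level at 2422 to 2646 CPM. Levels within the list were uneven, from 2, 6, 2 and 4 counts for Ager and 3, 0, 17 and 3 for Pdpn to 124, 63.3, 146 and 143 CPM for Hopx and 981, 951, 479 and 636 CPM for Aqp5. Transitional markers summed to 3891, 1700, 2473 and 4201 CPM, with 11 of 11 above 0, a median of 0.28 and Krt8, level between the genotypes, as the highest. Of the 11, 1 lay above both Ctrl libraries in both A5-CKO libraries and 0 lay below, against 20.3% and 23.5% of all genes tested.

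The summed levels of the fibroblast, the pericyte and smooth muscle and the leukocyte lists were each highest in A5-CKO 2, though single genes of the lists differed. Fibroblast markers, led by Col6a1, summed to 994, 785, 436 and 1586 CPM, and the range for pericyte and smooth muscle markers, led by Acta2, was 37.4 to 198 CPM, with A5-CKO 1 lowest and A5-CKO 2 highest in each. Lama4, Lamb1, Nid1 and Nid2 had the same lowest and highest libraries in CPM. With total counts only, Ctrl 2 was the lowest for Lamb1 and for the pericyte and smooth muscle sum. Nid2 had 20 counts in both Ctrl 2 and A5-CKO 1. The counts of all these genes in A5-CKO 2 were above those of any other library, and the part of these cells in the values was not tested. Of the fibroblast markers, 6 of 10 tested were above 0 (median 0.24), and Inmt, at 48.3, 52.7, 22.5 and 10.3 CPM, had an unadjusted p of 0.00803 in edgeR. Of the pericyte and smooth muscle markers 7 of 10 were above 0 (median 0.43).

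Macrophage and leukocyte markers, led by C1qb, summed to 1032, 213, 259 and 1331 CPM, with 8 of 12 above 0 (median 0.34) and Ptprc the gene with an unadjusted p under 0.05 in edgeR (log2 fold change 1.19). Mesothelial markers, led by Msln, summed to 28.1 to 128 CPM, with a median of -0.33 and 4 of 5 below 0 (3 of 5 with total counts only). Endothelial markers, led by Esam, summed to 345 to 602 CPM, with a median of -0.19 and 7 of 10 tested below 0 (with total counts only the median was 0.13 and 4 of 10 were below 0), and Cldn5 was at 0 counts in every library, under the floor of 3. Club and ciliated cell markers, led by Scgb1a1, summed to 2908, 2814, 2028 and 1282 CPM. All 7 were below 0 (median -0.86), and Cyp2f2 (-1.15) and Foxj1 (-1.51) had an unadjusted p under 0.05 in edgeR. Tinagl1 lay below both Ctrl libraries in both A5-CKO libraries, as did 23.5% of all genes tested (10.1% with total counts only). The sums of the AT2 and the club and ciliated lists did so too. So did the sum of the receptor list, at 6545, 7042, 4366 and 5006 CPM. The part of AT2, club or ciliated cells in the level of Tinagl1 was not tested.

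**Figure D4:**
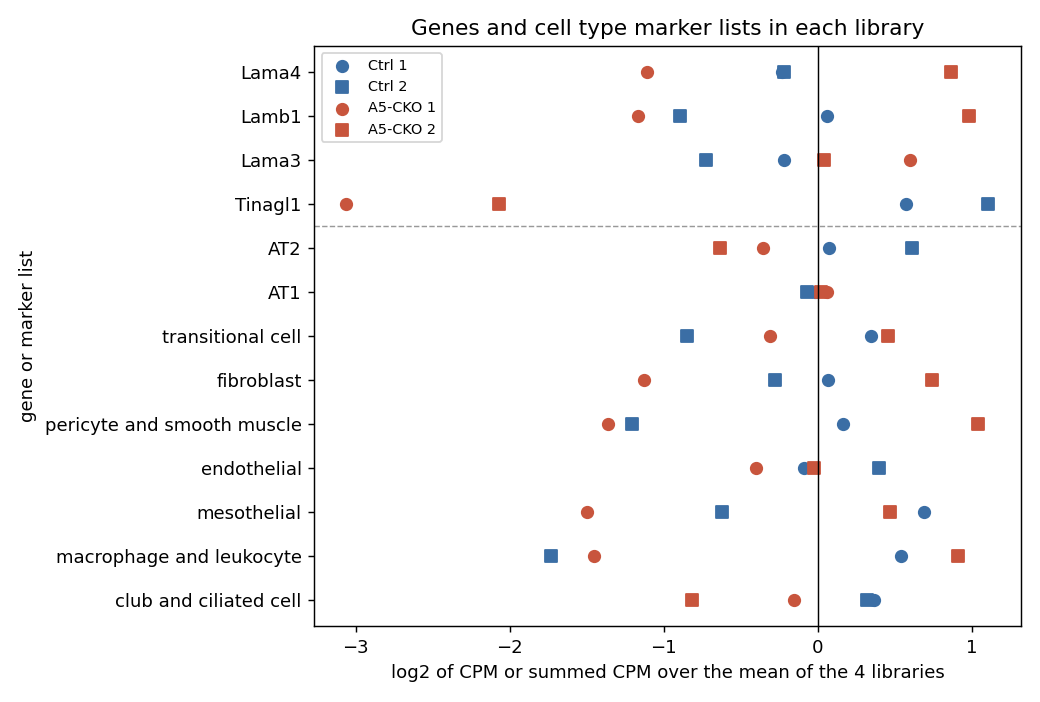
Each point is 1 library, placed by the log2 of its CPM, or of the summed CPM of a marker list, over the mean of the 4 libraries, with 4 genes above the dashed line and 9 marker lists below it. In CPM, Lama4 and Lamb1 share their lowest and highest libraries with the fibroblast and the pericyte and smooth muscle lists. Tinagl1 lies farther to the left in both A5-CKO libraries than any list.

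The 5 genes most like Tinagl1 were found by the distance between log2(CPM + 1) profiles over the 4 libraries, each centred on its own mean. Eif5a, a translation factor gene, was nearest at a distance of 0.739, with 29.9, 84.4, 5.21 and 6.50 CPM. Next were Ighg3, an immunoglobulin gene, at 0.902, and Tmem28 at 0.915. Ighg3 had 3.96, 13.7, 0.0453 and 0.0427 CPM, under the floor in both A5-CKO libraries, so its distance depends on the pseudocount. Alkbh5 itself was the next at 0.966, and Scgb1c1, a secretoglobin gene, was at 1.09. No laminin chain was among them. Such a profile rests on 4 libraries only.

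Which library drove a value differed between the genes. Leaving out A5-CKO 2, the median over the 8 genes turned on the log2 fold scale from 0.28 to -0.51, and without A5-CKO 1 it was 0.43. The sign of Lama3, Lama5, Lamb2, Lamb3 and Tinagl1 held whichever library was left out, while Lama4, Lamb1, Lamc1 and Npnt changed sign. The genes that held are those whose CPM did not overlap between the genotypes. With 2 libraries per group this restates that separation and adds no support to it.

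**Figure D5:**
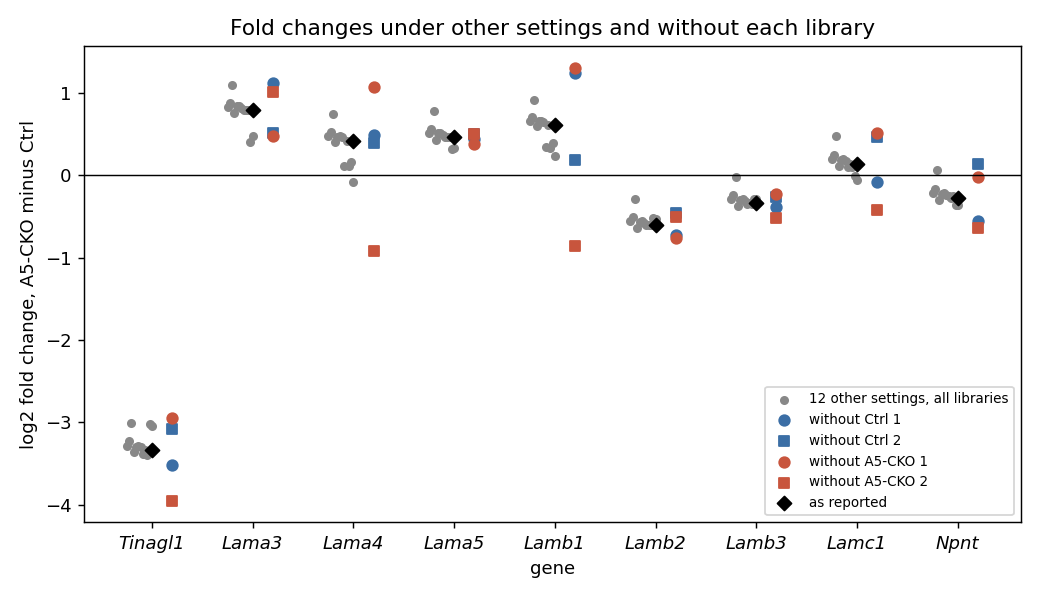
Log2 fold change (A5-CKO minus Ctrl) of the 9 genes as reported (black diamonds), under 12 other settings with all libraries (grey) and without each library in turn (blue and red). The points of Tinagl1 lie between -3.95 and -2.94, those of Lamb2 stay below 0 and those of Lama3 and Lama5 above it, and without A5-CKO 2 Lama4 and Lamb1 fall to -0.92 and -0.86.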

How the data were processed

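RNA-seq of sorted AT2 cells was compared between 2 Ctrl and 2 A5-CKO libraries, grouped by genotype per the labels. Per the study's methods, adapters were trimmed, reads were aligned to the mouse genome and duplicates were dropped. The authors deposited whole read counts per gene, without normalization or pooling. The submitters' processing notes name Trim Galore 0.6.10, HISAT2 2.2.1, featureCounts 2.0.3 and mm10. The strand setting is not given in the sources used here, and the paper's methods give gene counting under MeRIP-seq, and removal of ribosomal RNA reads with peak calling under RNA-seq, so whether that removal applies to these counts is not certain. Removing duplicates lowers the counts of highly expressed genes most.

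The counts were analysed with edgeR 4.0.16 in R 4.3.3 (TMM factors, filterByExpr, quasi-likelihood test, Benjamini-Hochberg adjustment, 16661 genes). Dispersion was 0.173 in common, or 41.6% as a biological coefficient of variation. TMM factors ranged from 0.860 to 1.13. SE is the fold change on the log2 scale over the square root of the F statistic. The members, gene lists and alternatives were chosen with earlier results of these data known. Counts of members passing a test leave out Tinagl1, which prompted the choice. Genes named beside the 9 were the targeted gene, laminin chains, nidogens, perlecan, agrin, collagen IV chains, the 5 genes most like Tinagl1 (pseudocount 1), and of each list the gene with the highest level and any with an unadjusted p under 0.05. Tinag, Col17a1, Itgb4, Itga8, Sftpc, Hopx, Aqp5, Ager, Pdpn, Cldn5 and the chain ratios were added after their values were seen. Alternatives were RLE, upper-quartile and no factors, no filter, at least 10 counts in every library, DESeq2 1.42.0 with the same gene set or its own default filtering, limma 3.58.1 voom, a robust fit, the replicate number as a block, offsets for transcript length and GC content (splines with 4 degrees of freedom, 15237 genes), and each library left out. The fit was tested on simulated data. Coordinates are RefSeq's on GRCm38.p6, and transcripts are the longest protein-coding ones of GENCODE M21. A further gene is not reported here.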

Additional observations from a re-analysis of the deposited data

How the results depend on the processing

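Of the values of single genes, 651 kept their direction and side of the threshold under the alternatives tried, 35 changed sign, 9 passed the adjusted threshold they had missed and 1 moved by more than the spread between replicates (Tinagl1, to -3.95 without A5-CKO 2), and the cause was not tested. The 9 were Alkbh5 and Cebpa under both DESeq2 runs and 5 genes under the crossed replicate block described below. With DESeq2, 55 genes passed the adjusted threshold on the same genes and 59 by its default filtering, against 0 in edgeR. At an unadjusted p under 0.05, the 8 genes other than Tinagl1 went from 0 called to 1 with RLE factors, upper-quartile factors, the filter of 10 counts in every library, DESeq2 on the same genes and the robust fit, and to 2 with total counts only. In each of these Lama3 was called, and with total counts only Lama5 was the other. Leaving out a library gave 0 to 1. The basement membrane list went from 1 to 2 with RLE or upper-quartile factors, the filter of 10 counts and both DESeq2 runs, to 5 when scaled by total counts and to 0 with length and GC offsets, and ranged from 0 to 3 with a library left out (0 without Ctrl 2, 3 without either A5-CKO library). The median log2 fold change of the 8 was 0.61 with total counts only and ranged from -0.51 to 0.43 with a library left out.

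The replicate block lowered the genes with an unadjusted p under 0.05 from 1530 to 754, and to 455 with length and GC offsets, where the median of the 8 was -0.068. The labels do not say that same-numbered libraries are paired, and their deviations from the group means correlated at -0.37 over 16661 genes. With 2 libraries per group this value rests on a single contrast within each group, so it cannot decide whether they are paired. A crossed replicate block, chosen after seeing the data, called 230 genes at the adjusted and 2582 at the unadjusted threshold, 1 of the 8 and 3 of the basement membrane list. With a library left out, 746 (without A5-CKO 1) to 1668 genes (without Ctrl 1) had an unadjusted p under 0.05. A lone library is then assumed to vary like the other group.

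The genes that changed sign when a library was left out ran from -0.92 to 1.08 for Lama4, -0.86 to 1.31 for Lamb1, -0.42 to 0.51 for Lamc1, -0.64 to 0.14 for Npnt, -0.069 to 1.86 for Lama1, -0.55 to 1.51 for Lama2, -1.42 to 0.46 for Lamc3, -0.88 to 1.49 for Nid1, -0.51 to 1.91 for Nid2, -0.18 to 0.15 for Hspg2 and -0.19 to 0.82 for Agrn. Among the markers they ran from -0.061 to 0.19 for Emp2, -0.38 to 0.42 for Krt8, -2.72 to 2.65 for Acta2, -1.54 to 1.25 for Msln and -2.66 to 3.55 for C1qb. With total counts only, Npnt was at 0.061, Lamc3 at 0.13, Hspg2 at 0.29 and Msln at 0.0025. Hspg2 was at 0.021 with RLE factors, the filter of 10 counts and DESeq2 on the same genes, 0.068 with upper-quartile factors and 0.0036 with DESeq2 by default. With length and GC offsets Lamc1 was at -0.0061, and with the replicate block as well it was at -0.053, Lama4 at -0.083 and Msln at 0.058. Krt8 was at -0.022 with no filter.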
